A study of Homo sapiens with 9 samples.

Results

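The genes described here are the MYC network and the ribosome biogenesis genes that MYC is known to act on, 42 genes taken by symbol from a table of read counts for 26364 gene names. The network part holds 9 genes, which encode MYC, its relative MYCL, their partner MAX and the repressors that share MAX. The other 33 genes encode proteins that make ribosomes in the nucleolus. All 42 were listed in the table, and all 42 passed the expression filter in each of 4 comparisons.

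RNA-seq was performed on A549, a human lung adenocarcinoma cell line, to compare cells with and without the intergenic *LOC388942-ALK* (*LA*) fusion and *LA* cells with and without disruption of *FOS*. The 2 control libraries, A549, were labelled as wild type. The 2 *LA* libraries carried the guides sg*LOC388942* and sg*ALK*. The 3 sgScr libraries carried that same pair of guides plus a scramble guide, and the 2 sg*FOS* libraries carried the pair plus a guide against *FOS*, so that every group other than A549 held the fusion guides. According to the methods, the fusion guides were delivered by a lentiviral vector with an mCherry marker into A549 cells that expressed Cas9. Fusion cells were then grown from single cells, so that the *LA* groups can stand for a single clone, and its differences from the parental line can be those of a clone. The labels do not say whether the control cells held Cas9 or a vector, which *FOS* guide was used, or whether replicates were separate cultures. The p-values therefore measure the spread between these libraries, which may be technical.

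MYC binds DNA as a pair with MAX at a short sequence called the E-box and raises the transcription of its targets, among which genes for ribosome production are prominent. The MXD proteins, MXI1, MNT and MGA also pair with MAX and repress genes at the same sites. Ribosome production starts in the nucleolus, where RNA polymerase I transcribes ribosomal RNA, small nucleolar ribonucleoprotein particles (snoRNPs) modify it, and assembly factors fold and cut it into the small and the large subunit.

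Because the E-box is the site that both arms of the network share, the promoters of the members were searched for its core letters, CACGTG, which read the same on both strands. Promoter windows of 250 bases before the annotated start (RefSeq, GRCh38.p14) were at hand for 34 members, and 5 of these held the motif, which is 14.7% of the genes against 7.73% of all 27305 genes with a window. Counted by window, since a gene can have several, 10.6% of the members' windows and 6.34% of all windows held it. The members *MYC*, *NOP58*, *NOLC1*, *TCOF1*, *RRP12*, *BOP1*, *RRS1* and *DDX18* had no window. The 5 matches are given on the strand of the gene, with the E-box in capitals. They lie at chr4:2262330-2262359 on the minus strand for *MXD4*, at chr9:133336395-133336424 on the minus strand for *SURF6*, at chr10:68956604-68956633 on the plus strand for *DDX21*, at chr12:101280083-101280104 on the plus strand for *UTP20* and at chr17:2401236-2401265 on the minus strand for *MNT*. The first base of the motif lay 238, 224, 31, 10 and 193 bases before the start in these genes, in that order. A match is a description of the sequence and not a bound site.
MXD4: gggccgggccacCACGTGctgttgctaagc
SURF6: ggagcacaggaaCACGTGcgggaccggggt
DDX21: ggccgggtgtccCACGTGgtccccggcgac
UTP20: cttttttccgtcCACGTGaccc
MNT: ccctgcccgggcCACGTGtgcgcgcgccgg

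The 9 libraries held between 14507228 and 20456341 counts. *FOS* had 167 and 155 counts in A549, 5448 and 1660 in *LA*, 4198, 4037 and 3528 in sgScr, and 1008 and 1113 in sg*FOS*. *ALK*, counted over the whole gene, had 0 in both A549 libraries, 2 and 15 in *LA*, 4, 1 and 3 in sgScr, and 2 and 0 in sg*FOS*. Of 6 A549 markers, *KRT8*, *KRT18*, *AKR1B10* and *ALDH1A1* had at least 1647 CPM in each library, *AKR1C1* 662 to 2906 CPM and *KRT19* 32.6 to 174 CPM, where CPM is the usual count scaled to a common library total, after TMM normalization. Of 6 markers of other cell types, *PTPRC* and *CD3E*, which define blood cells, had 0 counts throughout, *PECAM1* and *VWF* had at most 3 and *COL3A1* at most 25, while the collagen gene *COL1A1* had 111 to 271 counts. The groups differed in how close their replicates were. Sampling noise alone puts chi-square per degree of freedom at 1, and the replicates gave 127 for A549 and 60.3 for *LA*, against 1.77 to 2.66 for sgScr and 1.73 for sg*FOS*.

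The members followed the same split. The TMM normalization behind the CPM values was run over all 9 libraries and sets the levels relative to the bulk of expressed genes. The absolute log2 difference of a member between replicates had a median of 0.68 in A549 and 0.323 in *LA*, and of 0.0386 to 0.0693 within sgScr and 0.0428 in sg*FOS*. Over all genes that passed the filter the median was 0.537 in A549, 0.337 in *LA*, 0.078 to 0.0922 within sgScr and 0.0892 in sg*FOS*. Between the A549 libraries, 8 of the 42 members differed by more than 1 on the log2 scale, and in the other groups none did. For these medians and counts a small constant was added to each CPM before the log. Without it, *MYCL* (-1.06), *MXD1* (-1.02) and *PPAN* (1.26) also differed by more than 1 between the A549 libraries. All 7 genes for snoRNP proteins were higher in A549 replicate 1 than in replicate 2, with a median log2 difference of 0.98 without the constant. In the *LA* group 30 of the 42 members were higher in replicate 1. A change of the size seen between sg*FOS* and sgScr could thus not be read from the A549 and *LA* libraries. These are bulk libraries of a cell line, in which fewer cells with a transcript and less of it in each cell cannot be told apart.

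Divided by transcript length, which is needed to set one gene beside another, *NPM1* had the highest mean level of the 42 genes in every group. Nucleophosmin, its product, is an abundant nucleolar chaperone. Its level was 1207 ± 290 CPM per kilobase in A549 (mean ± SD, n = 2), 672 ± 296 in *LA* (n = 2), 1039 ± 37.6 in sgScr (n = 3) and 942 ± 9.0 in sg*FOS* (n = 2). In A549 replicate 1, *FBL* was above *NPM1*, with 1384 against 1002 CPM per kilobase. In the sgScr libraries, where the spread was small, *FBL* (367 ± 7.59 CPM per kilobase), *NCL* (325 ± 12.2), *NHP2* (185 ± 6.74) and *PA2G4* (155 ± 3.05) came next, and their intervals of 1 SD did not overlap. *MYC* was 15th with 51.6 ± 1.57 CPM per kilobase, above all 8 other network genes. *MAX* (15.1 ± 0.14) and *MXD3* (14.4 ± 0.59) were the next network genes. *MXD1* (0.93 ± 0.17), *MYCL* (0.54 ± 0.06) and *PPAN* (0.36 ± 0.07) were the lowest of the 42. *PPAN* shares exons with the read-through gene *PPAN-P2RY11* on the same strand, and reads that fit both may not have been counted for it.

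In the network, *MYC* itself (chr8:128747680-128755197 on GRCh37, plus strand) had 106 and 151 CPM in A549, 167 and 193 in *LA*, 185, 194 and 196 in sgScr, and 178 and 173 in sg*FOS*. The A549 libraries were lowest and did not overlap any other group, and the sg*FOS* libraries were just below all sgScr libraries. *MAX*, the obligate partner, had 46.8 and 28.6 CPM in A549, 33.9 and 32.0 in *LA*, 30.7, 30.3 and 30.1 in sgScr, and 34.5 and 34.0 in sg*FOS*, so that the fusion groups lay inside the range of the A549 pair. *MYCL*, a MYC relative, stayed between 0.983 and 2.42 CPM in all 9 libraries, on 16 to 44 counts, with overlap between A549 and each other group.

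Among the repressors, *MXD1* (chr2:70124820-70170077, plus strand) had 1.42 and 2.89 CPM in A549, 9.15 and 15.8 in *LA*, 5.81, 5.64 and 4.08 in sgScr, and 6.71 and 4.66 in sg*FOS*. The *LA* libraries were above and the A549 libraries below all others. *MXD3* (chr5:176728462-176739758, minus strand) ran the other way, with 62.8 and 22.9 CPM in A549, 10.1 and 6.88 in *LA*, 15.7, 15.7 and 14.6 in sgScr, and 13.0 and 12.6 in sg*FOS*. *MXD4* (chr4:2249159-2263836, minus strand) had 52.6 and 32.2 CPM in A549, 18.0 and 27.6 in *LA*, 27.4, 30.6 and 31.4 in sgScr, and 42.2 and 45.6 in sg*FOS*, and its sg*FOS* libraries were above all sgScr libraries. *MGA* (chr15:41913332-42065279, plus strand), the largest protein of the network, had 18.4 and 20.0 CPM in A549 and 68.9 to 82.0 CPM in the 7 fusion libraries, a gap with no overlap. *MXI1* ran from 14.8 to 21.7 CPM and *MNT* from 25.0 to 37.2 CPM over the 9 libraries. The *MXD1* and *MXD3* loci overlap *SNRNP27* and *RAB24* on the same strand, so that their counts may depend on how shared reads were assigned.

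**Figure D1:**
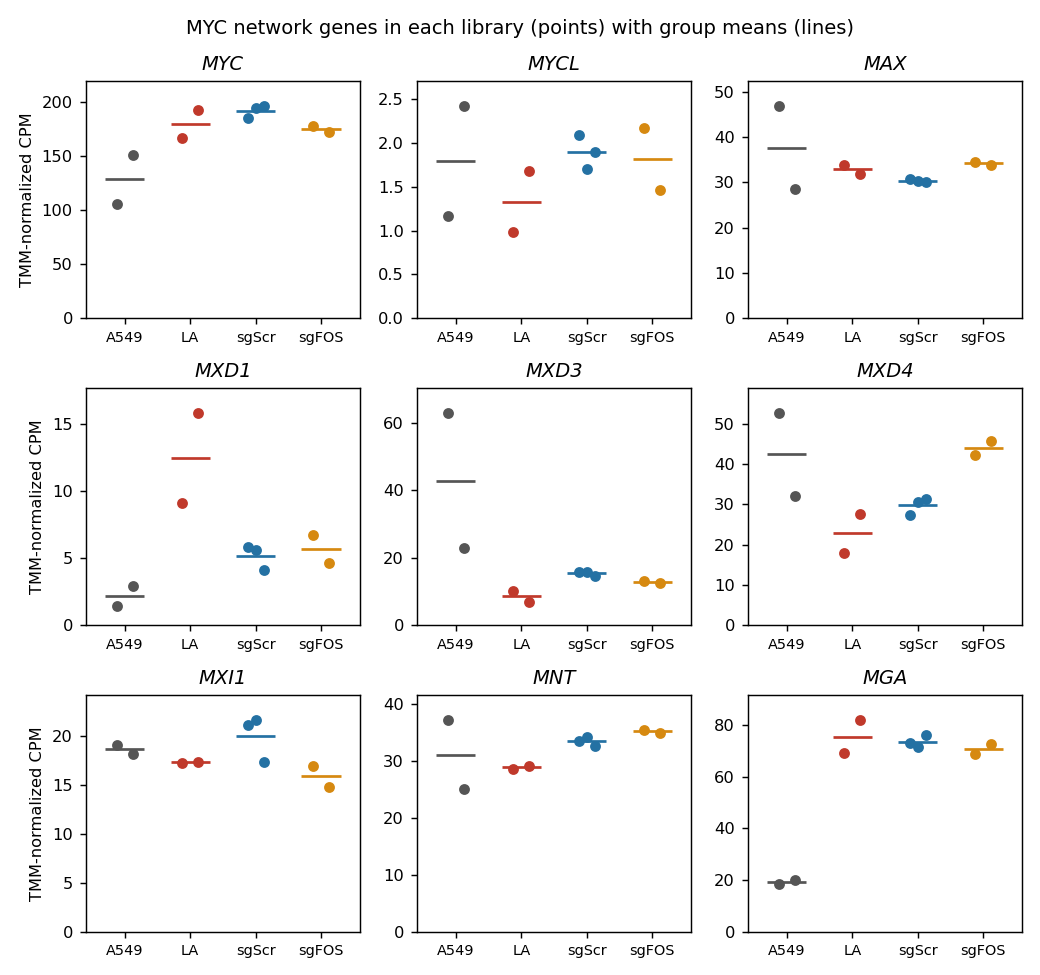
TMM-normalized CPM (vertical axis, from 0) of the 9 MYC network genes in each library (points, from left to right by replicate) of the 4 groups (horizontal axis), with the group mean as a line. *MGA* and *MXD1* are higher and *MXD3* lower in both *LA* libraries than in both A549 libraries, and *MXD4* is higher in both sg*FOS* libraries than in the 3 sgScr libraries.

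The first comparison asked how cells with the *LA* fusion differed from A549. A gene was called at a Benjamini-Hochberg adjusted p under 0.05 over 14425 genes, by the quasi-likelihood test of edgeR on the 4 libraries. Of the 42 members, 4 were called higher and 11 lower in *LA*, in a comparison that called 9.57% of all genes higher and 9.94% lower, 19.5% in all. The 4 that rose were the repressor genes *MXD1* and *MGA*, *POLR1A* and *UTP20*. The 11 that fell were *MXD3* and 10 ribosome biogenesis genes, led by *FBL* and *NHP2*. The median log2 fold change was -0.40 over the members and 0.044 over all genes tested. The groups did not overlap for 31 members and for 63.8% of all genes. With library size alone in place of TMM, which moved the median of all genes up by 0.28, the split was 4 higher and 5 lower.

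By role, the snoRNP genes fell most often, 5 of 7, with a median log2 fold change of -1.41. The large-subunit genes followed with 5 of 13 called lower and none higher. RNA polymerase I genes had 1 of 6 called higher (median 0.76), small-subunit genes had 1 of 4 called higher (median 0.63), and none of the 3 nucleolar chaperone genes was called. *MYC* (log2 fold change 0.45, SE 0.40, edgeR adjusted p = 0.446), *MYCL* (-0.46, SE 0.74, adjusted p = 0.702) and *MAX* (-0.21, SE 0.42, adjusted p = 0.760) were not called.

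*FBL* (chr19:40325098-40337019, minus strand) encodes fibrillarin, the methyltransferase of the box C/D snoRNPs. It had 1557 and 591 CPM in A549 and 249 and 195 CPM in *LA*, so that both *LA* libraries were below both A549 libraries, which were themselves far apart. It fell by 2.28 on the log2 scale (SE 0.48), 4.87-fold, with an edgeR adjusted p of 0.00278. *NHP2* (chr5:177576464-177580895, minus strand), a core protein of the box H/ACA snoRNPs and of telomerase, had 465 and 251 CPM in A549 against 80.1 and 95.7 CPM in *LA*. It fell by 2.05 (SE 0.43, 4.13-fold, edgeR adjusted p = 0.00284). *NOP56*, the scaffold of the box C/D particle and a host gene of several snoRNAs, had 776 and 394 CPM in A549 against 216 and 177 CPM in *LA*, and it fell 3.01-fold (log2 fold change -1.59, SE 0.44, edgeR adjusted p = 0.0138). Each of these genes was higher in A549 replicate 1 than in replicate 2 and did not overlap between the groups. *GAR1* and *RRP9* were also called lower, 2.43-fold and 2.65-fold, and *NOP58* (-0.77) and *DKC1* (-0.07), which encodes the pseudouridine synthase dyskerin, were not called.

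Of the large-subunit genes, *BOP1*, a member of the complex that BOP1, PES1 and WDR12 form, had 708 and 268 CPM in A549 and 166 and 140 CPM in *LA* (log2 fold change -1.69, SE 0.46, edgeR adjusted p = 0.0128). Its partner *PES1* was also called lower, with a log2 fold change of -1.30, while *WDR12* was not called at -0.44. *WDR74*, an assembly factor of the large subunit, had 123 and 52.6 CPM in A549 and 29.8 and 26.9 CPM in *LA* (-1.64, SE 0.44, adjusted p = 0.0112). *BOP1*, *PES1* and *WDR74* were lower in both *LA* libraries than in either A549 library, while the *WDR12* groups overlapped. *NOP16* (-1.31) and *PA2G4* (-1.43) completed the called large-subunit genes, and a pseudogene of *PA2G4* is listed beside it, with which it may share reads. The other 7 large-subunit genes ran from -0.84 for *SURF6* to 0.29 for *DDX18*.

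In the opposite direction, *POLR1A* (chr2:86247339-86333278, minus strand), which encodes the largest subunit of RNA polymerase I, had 50.2 and 39.4 CPM in A549 and 156 CPM in each *LA* library. It rose 3.43-fold (log2 fold change 1.78, SE 0.40, edgeR adjusted p = 0.00425). *UTP20* (chr12:101673883-101780396, plus strand), a component of the small-subunit processome, had 30.2 and 44.7 CPM in A549 against 142 and 90.7 CPM in *LA*, 3.05-fold higher (1.61, SE 0.42, adjusted p = 0.0100). Both were separated from A549 in each library. *DDX21*, a nucleolar helicase, had 72.6 and 258 CPM in A549 and 535 and 338 CPM in *LA*, with no overlap. It missed the threshold in edgeR (1.37, SE 0.50, edgeR adjusted p = 0.0543) and was called by DESeq2 (1.36, DESeq2 adjusted p = 0.0454). *MXD1* rose 5.62-fold (2.49, SE 0.57, adjusted p = 0.00445) and *MGA* 3.86-fold (1.95, SE 0.41, adjusted p = 0.00294), whereas *MXD3* fell 5.09-fold (-2.35, SE 0.49, edgeR adjusted p = 0.00278). The other 3 repressor genes missed the threshold, at log2 fold changes of -0.92 for *MXD4* and -0.13 for both *MXI1* and *MNT*.

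**Figure D2:**
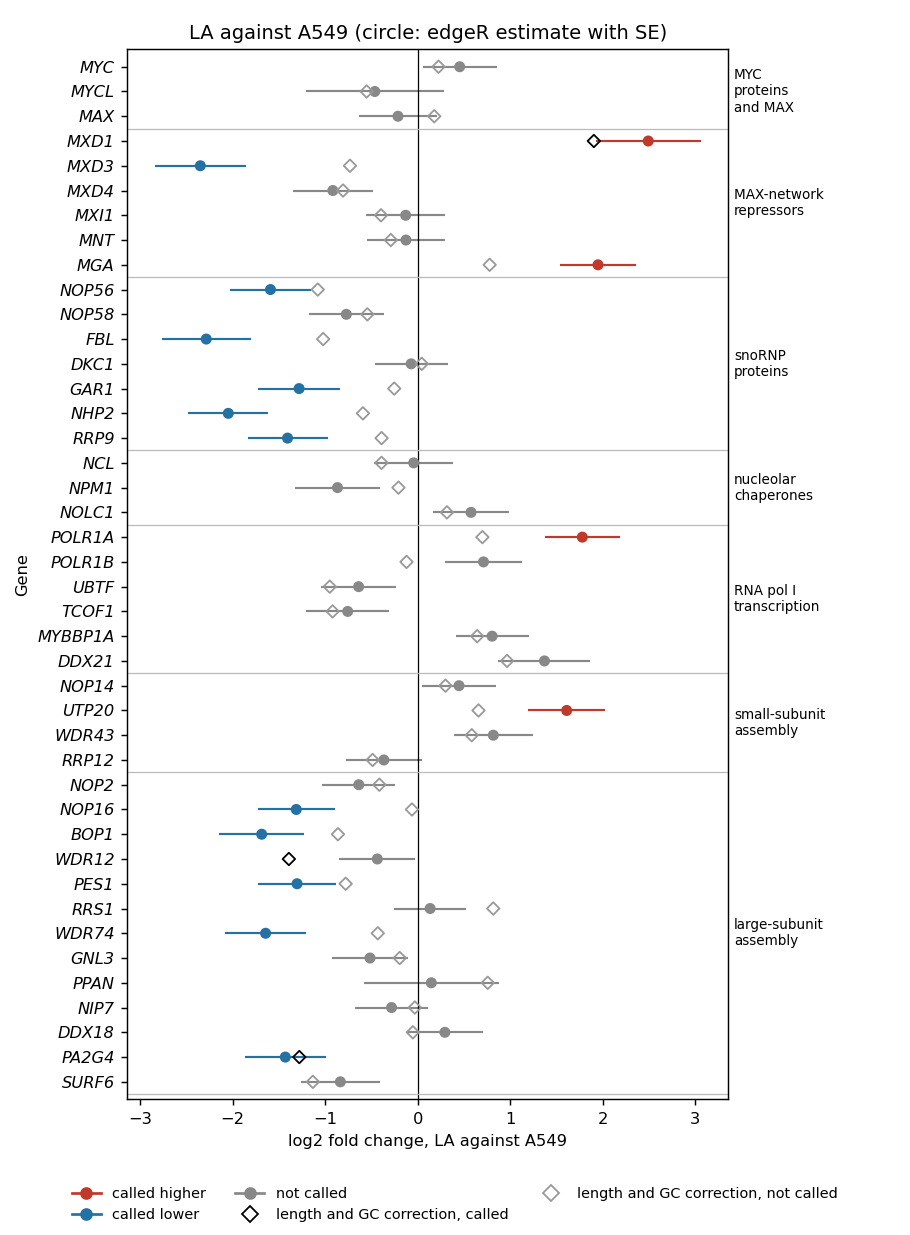
Log2 fold change of *LA* against A549 (horizontal axis) for each of the 42 genes (vertical axis, by role), as the edgeR estimate with its SE (circles with bars, red called higher, blue called lower, gray not called) and after correction for transcript length and GC content (diamonds, black where called). Blue circles gather in the snoRNP and large-subunit blocks, and 3 diamonds are black, those of *MXD1*, *WDR12* and *PA2G4*.

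The direction of change went with transcript length. The 21 members with transcripts of 780 to 3470 bases held all 11 that were called lower and had a median log2 fold change of -1.28, while the 21 members of 3506 to 12480 bases held all 4 that were called higher and had a median of 0.45. Across the 42 members, Spearman's correlation of fold change with length was 0.703, and across 13982 genes it was 0.579. Length also separated the A549 replicates, since the members' log2 difference (replicate 1 minus replicate 2) had a correlation of -0.408 with it. Across 14363 genes that correlation was -0.345. Genes share libraries and are not independent, so no p is given. All of the called snoRNP genes have short transcripts, from 780 bases for *NHP2* to 1913 for *NOP56*, and *MGA* (12193 bases) and *POLR1A* (12480 bases) have the longest.

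The comparison was therefore also fitted with each library corrected by a loess curve over length and GC content. With it, 1 member was called higher and 2 lower, where 9.58% of 13982 genes were called (5.4% higher and 4.18% lower), and the members' median was -0.27. *MXD1* (1.90, edgeR adjusted p = 0.0303) and *PA2G4* (-1.28, adjusted p = 0.0423) kept their calls. *WDR12* became called (-1.39, adjusted p = 0.0168), with an annotated transcript of 8068 bases that sets the size of its correction. None of the 5 snoRNP calls held under the correction: *FBL* had -1.02 (adjusted p = 0.0671), *NHP2* -0.59 (adjusted p = 0.131) and *NOP56* -1.08 (edgeR adjusted p = 0.0558). *MGA* had 0.78, *POLR1A* 0.70, *UTP20* 0.66, *MXD3* -0.73, *BOP1* -0.86 and *WDR74* -0.43, with adjusted p from 0.0848 to 0.316 in edgeR. What set the length trend was not tested, and the trend and the fusion cannot be told apart in this comparison.

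The calls also changed when a library was left out, with 3 libraries in the test. Without *LA* replicate 2, no member was called in either direction by edgeR, although 5 were higher and 4 lower at an unadjusted p under 0.05, and without *LA* replicate 1 there was 1 in each direction. The members' median log2 fold change was -0.20 without *LA* replicate 2, against -0.40 with all 4 libraries. Single genes then had -2.09 for *FBL*, -2.15 for *NHP2*, 1.81 for *POLR1A* and 1.85 for *MGA*. *MXD1* had 2.07, *MXD3* -2.07 and *UTP20* 1.92, against 2.49, -2.35 and 1.61 with all 4 libraries. Without A549 replicate 1, 3 were called higher (*MXD1*, *MGA* and *POLR1A*) and 3 lower (*MXD3*, *FBL* and *NHP2*), and the fold changes of the genes that fell were smaller. They were -1.48 for *FBL*, -1.59 for *NHP2* and -1.50 for *MXD3*, and *BOP1* (-0.88, edgeR adjusted p = 0.119), *WDR74* (-0.96, adjusted p = 0.0958), *NOP56* (-1.08, adjusted p = 0.0663) and *UTP20* (1.31, adjusted p = 0.0541) lost their calls. Without A549 replicate 2, 7 were called higher and 15 lower. In each of these fits the lone library of its group was assumed to vary like the other pair.

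**Figure D3:**
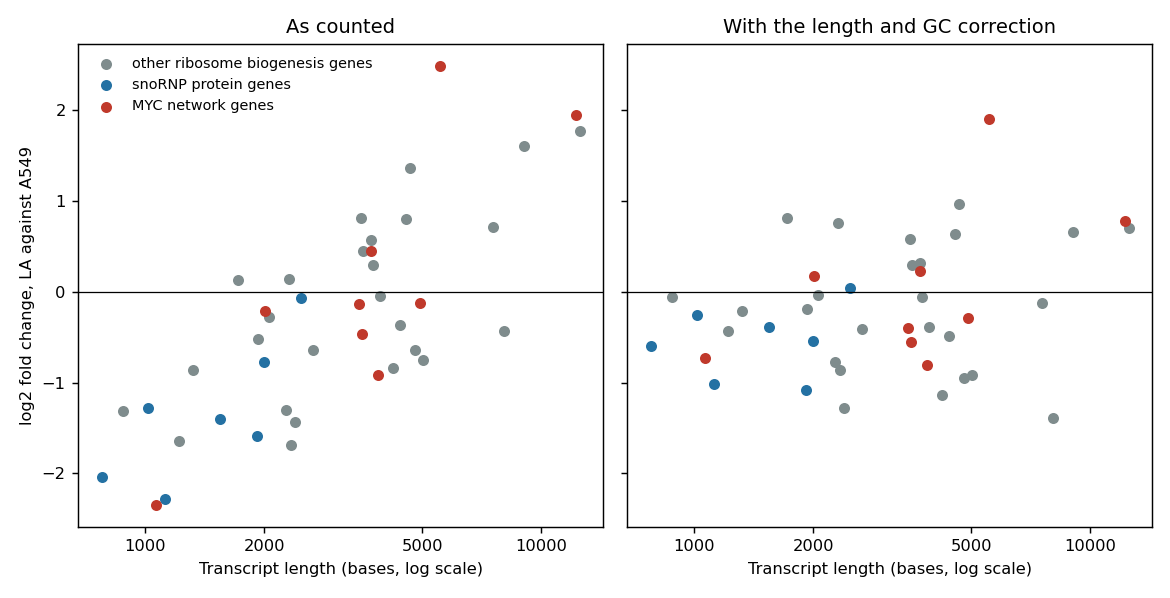
Log2 fold change of *LA* against A549 (vertical axis) against transcript length in bases (horizontal axis, log scale) for the 42 genes, as counted (left) and with the length and GC correction (right), with MYC network genes in red, snoRNP genes in blue and the other ribosome biogenesis genes in gray. On the left the points climb from about -2 at the shortest transcripts to about 2 at the longest, and on the right most of that slope is gone (Spearman's correlation 0.219).

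The sgScr cells, which carry the fusion guides and a scramble guide, were set against the same 2 A549 libraries, so that this comparison and the preceding one share their controls and are not independent of each other. Of the 42 members, 10 were called higher and 9 lower in sgScr by edgeR, where 41.5% of all genes were called (19.8% higher and 21.7% lower). The median was -0.13 over the members and 0.019 over all genes, and the groups did not overlap for 31 members and for 69.2% of all genes. *MGA* was 3.86-fold, *POLR1A* 3.83-fold, *UTP20* 3.30-fold and *MXD1* 2.39-fold higher than in A549, and *MXD3* (2.75-fold), *FBL* (2.57-fold), *NHP2* (2.45-fold) and *NOP56* (2.21-fold) were lower. The 4 members called higher in *LA* were all among the 10 here, and 8 of the 11 called lower in *LA* were among the 9. The 6 others that rose were *NOLC1*, *MYBBP1A*, *NOP14*, *RRS1*, *NCL* and *DKC1*, with log2 fold changes from 0.42 for *DKC1* to 0.90 for *NOLC1*, and *NOP58* fell by 0.63. *MYC* missed the threshold in edgeR (0.58, SE 0.20, edgeR adjusted p = 0.0583) and was called by DESeq2 (0.57, DESeq2 adjusted p = 0.0412). It had 0.32 (edgeR adjusted p = 0.0877) with the length and GC correction.

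With the correction, 9 members were called higher in sgScr and 4 lower, where 37.5% of all genes were called (19.8% higher and 17.7% lower). Those called higher included *MGA* (0.86, edgeR adjusted p = 0.00529), *POLR1A* (1.03, adjusted p = 0.00327), *UTP20* (0.85, adjusted p = 0.00206), *NOLC1* (0.61, adjusted p = 0.00708) and *RRS1* (1.09, adjusted p = 0.00704). Among the 4 called lower was *NOP56* (-0.74, adjusted p = 0.0382), and the others were *PA2G4*, *WDR12* and *SURF6*. *FBL* (-0.28, adjusted p = 0.273) and *NHP2* (-0.08, edgeR adjusted p = 0.442) lost their calls, as did *MXD1* (0.63, adjusted p = 0.107), *NOP58*, *NCL*, *RRP9*, *NOP16* and *PES1*, and *MXD3* changed its sign (0.08, edgeR adjusted p = 0.638). Spearman's correlation of the members' fold changes with length was 0.732 before the correction. The count of calls was 0 in both directions without sgScr replicate 2 or without sgScr replicate 3, and 2 higher and 0 lower without sgScr replicate 1. Fits without an A549 library left a lone A549 library, so that their spread came from the close sgScr replicates. Their counts of calls are therefore not compared with the others. At an unadjusted p under 0.05 in edgeR, 6 or 7 members were higher and 8 lower in the 3 fits that left out an sgScr library.

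Both *LA* and sgScr cells carry the fusion, and they too differed from each other. Against the 2 *LA* libraries, 11 members were called higher and 1 lower in sgScr by edgeR, where 10.6% of all genes were called higher and 12.3% lower (22.9% in all). The members' median log2 fold change was 0.29, against -0.016 over all genes, and 34 of the 42 had a positive sign. Spearman's correlation of fold change with transcript length was -0.503 across the members and -0.105 across 14074 genes. The 21 members with the shorter transcripts held 10 of the 11 called higher. What set this trend was not tested. The groups did not overlap for 24 members and for 56.7% of all genes. The snoRNP genes held 5 of the 11, which were *FBL* (0.87, SE 0.12, adjusted p = 0.00758), *NHP2* (0.70, SE 0.11, adjusted p = 0.0100), *DKC1* (0.44), *NOP56* (0.40) and *RRP9* (0.40). *UBTF*, the factor that loads RNA polymerase I onto ribosomal genes, rose 1.63-fold from 123 and 100 CPM in *LA* to 179, 189 and 185 CPM in sgScr (0.70, SE 0.11, edgeR adjusted p = 0.0109). The large-subunit genes *WDR74*, *BOP1*, *PES1* and *RRS1* and the repressor gene *MXD3* completed the 11, with log2 fold changes from 0.31 to 0.84. In all 11 the 3 sgScr libraries were above both *LA* libraries.

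*MXD1* was the member that was lower in sgScr than in *LA* (-1.29, SE 0.28, 2.44-fold, edgeR adjusted p = 0.0262). Its value was -1.28 with the length and GC correction, under which 9 members were called higher and 1 lower in a comparison that called 28.8% of all genes (14.3% higher and 14.5% lower). *FBL* (0.76), *NHP2* (0.55), *DKC1* (0.39), *UBTF* (0.77), *BOP1* (0.70) and *WDR74* (0.58) kept their calls under the correction, and *NOP56*, *RRP9*, *PES1*, *RRS1* and *MXD3* did not. *MXD4* (0.58), *POLR1A* (0.29) and *PA2G4* (0.53) became called under it. Without the correction *MYC* (0.07, SE 0.10, edgeR adjusted p = 0.613), *MGA* (-0.06, SE 0.10) and *POLR1A* (0.10, SE 0.08) were not called. Fits without an *LA* library left a lone *LA* library, so that their spread came from the close sgScr replicates. Their counts of calls are therefore not compared with the others. Without any one of the 3 sgScr libraries none was called by edgeR in either direction, while 11 or 12 were higher and 1 or 2 lower at an unadjusted p under 0.05. The labels do not say whether the *LA* and the sgScr libraries were made together, so that the scramble guide and any difference in handling cannot be told apart here.

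The last comparison asked what a guide against *FOS* changed in fusion cells. Of the 42 members, 7 were called higher and 6 lower in sg*FOS* than in sgScr by edgeR over 14196 genes, which called 12.2% of all genes higher and 10.5% lower (22.7% in all). Those that rose were *MXD4*, *RRS1*, *MYBBP1A*, *RRP12*, *SURF6*, *BOP1* and *RRP9*. Those that fell were *MYC*, *MXI1*, *FBL*, *NPM1*, *GNL3* and *NCL*. The changes were small. The median log2 fold change was 0.0009 over the members and -0.0015 over all genes, 21 members had a positive and 21 a negative sign, and the called values ran from -0.34 for *MXI1* to 0.57 for *MXD4*. The groups did not overlap for 23 members and for 48.5% of all genes.

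*MXD4*, a repressor that pairs with MAX, changed most among the called members. Its 42.2 and 45.6 CPM in sg*FOS* were above the 27.4, 30.6 and 31.4 CPM of sgScr, a 1.48-fold rise (log2 fold change 0.57, SE 0.07, edgeR adjusted p = 3.58e-08). Its promoter window is one of the 5 with an E-box given above. Of the others, *SURF6* was called higher, while *DDX21* (-0.06), *UTP20* (-0.03) and *MNT* (0.08) were not called. *MYC* had 178 and 173 CPM in sg*FOS*, below the 185, 194 and 196 CPM of sgScr, and was 1.09-fold lower (-0.13, SE 0.04, edgeR adjusted p = 0.0132). The groups did not overlap, and the gap between them was narrow. *MXI1* had 17 and 14.8 CPM in sg*FOS* against 21.2, 21.7 and 17.4 CPM in sgScr, so that the lowest sgScr library was close to the higher sg*FOS* library (-0.34, SE 0.10, adjusted p = 0.0131). *MAX* (0.18, SE 0.07, adjusted p = 0.0557) and *MXD3* (-0.26, SE 0.10, adjusted p = 0.0676) did not overlap between the groups and were not called by edgeR. *MXD1* (0.13), *MNT* (0.08), *MGA* (-0.05) and *MYCL* (-0.06) were not called either.

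Among the genes for ribosome production, *RRS1* (chr8:67341249-67342968, plus strand), which helps to bring the 5S particle into the large subunit, had 93.7 and 94.5 CPM in sg*FOS* and 75.3, 80.0 and 78.6 CPM in sgScr. It was 1.21-fold higher (0.28, SE 0.05, edgeR adjusted p = 1.12e-05). *MYBBP1A*, a nucleolar protein named for its binding to MYB, had 151 and 159 CPM in sg*FOS* and 135, 131 and 134 CPM in sgScr (0.22, SE 0.04, adjusted p = 5.86e-05). Both genes had every sg*FOS* library above every sgScr library. *RRP12*, an export and maturation factor, had 109 and 106 CPM against 94.2, 94.9 and 98.8 CPM (0.17, SE 0.04, edgeR adjusted p = 0.00251). *SURF6*, a nucleolar matrix protein gene whose window also holds an E-box, had 39.3 and 40.9 CPM against 35.9, 32.0 and 34.1 CPM (0.24, SE 0.07, adjusted p = 0.00678). *BOP1* rose 1.09-fold, from 225, 220 and 240 CPM to 248 CPM in each sg*FOS* library (0.12, SE 0.04, edgeR adjusted p = 0.0158). These genes belong to the small-subunit, the large-subunit and the RNA polymerase I groups, and most members of those groups were not called.

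Of the 4 ribosome genes that fell, *NPM1*, *FBL* and *NCL* had the highest levels per kilobase of the 42 in both groups. *FBL* had 364 and 357 CPM in sg*FOS* against 416, 403 and 419 CPM in sgScr, 1.14-fold lower (-0.19, SE 0.03, edgeR adjusted p = 6.44e-05). *NPM1* had 1251 and 1235 CPM against 1403, 1398 and 1315 CPM (-0.14, SE 0.03, adjusted p = 0.00253), and *NCL*, which encodes nucleolin, had 1176 and 1174 CPM against 1286, 1317 and 1223 CPM (-0.11, SE 0.03, edgeR adjusted p = 0.0132). *GNL3*, the gene of the GTP-binding protein nucleostemin, had 113 and 110 CPM against 126, 126 and 122 CPM (-0.16, SE 0.04, adjusted p = 0.00307). Every sg*FOS* library was below every sgScr library in these 4 genes. *NCL* and *GNL3* host small nucleolar RNA genes that are listed in the table on the same strand.

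**Figure D4:**
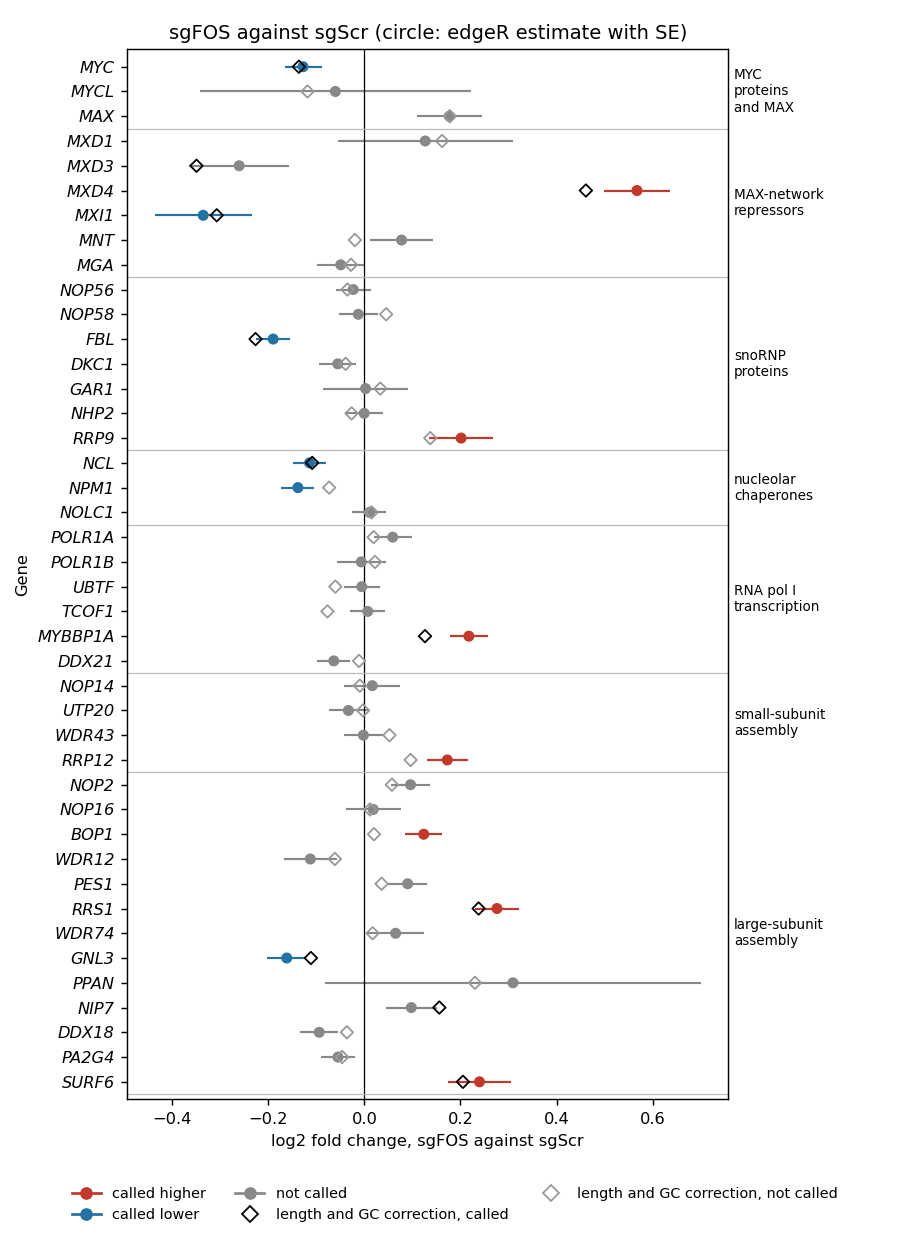
Log2 fold change of sg*FOS* against sgScr (horizontal axis) for each of the 42 genes (vertical axis, by role), as the edgeR estimate with its SE (circles with bars, red called higher, blue called lower, gray not called) and after correction for length and GC content (diamonds, black where called). Apart from *MXD4* at 0.57, the called genes lie between -0.34 and 0.28.

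By role, 1 of 7 snoRNP genes rose (*RRP9*, 0.20) and 1 fell (*FBL*), 2 of 3 nucleolar chaperone genes fell, 1 of 6 RNA polymerase I genes and 1 of 4 small-subunit genes rose, and 3 of 13 large-subunit genes rose and 1 fell. The members' fold changes showed little relation to transcript length here, with a Spearman's correlation of 0.039. With the length and GC correction, 5 members were called higher and 6 lower, where 21.1% of all genes were called (10.9% higher and 10.2% lower). *MXD4*, *RRS1*, *MYBBP1A*, *SURF6*, *MYC*, *MXI1*, *FBL*, *GNL3* and *NCL* kept their calls. *RRP12* (0.10, edgeR adjusted p = 0.103), *BOP1* (0.02, adjusted p = 0.760), *RRP9* (0.14, adjusted p = 0.148) and *NPM1* (-0.07, adjusted p = 0.114) lost theirs, and *NIP7* (0.16, adjusted p = 0.0268) and *MXD3* (-0.35, edgeR adjusted p = 0.0114) gained one.

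With DESeq2 in place of edgeR, 9 of the 13 calls were shared, and *SURF6* (adjusted p = 0.0740), *BOP1* (0.0573), *RRP9* (0.173) and *MXI1* (0.101) were not called. Single libraries moved these counts as well. Without sg*FOS* replicate 2, 5 members were called higher and 1 lower, the latter being *FBL*, and *MYC* then had -0.11 (edgeR adjusted p = 0.160). Without sg*FOS* replicate 1 the counts were 4 and 5, and without sgScr replicate 2 they were 4 and 3. *MYC* was not called without sgScr replicate 2 (-0.12, edgeR adjusted p = 0.0677), and *MXI1* was not called without it (-0.27, adjusted p = 0.0981) or without sg*FOS* replicate 2 (-0.24, adjusted p = 0.210). *MXD4*, *RRS1*, *MYBBP1A* and *FBL* were called without each of the 5 libraries in turn. The study used DESeq2 and called a gene at p under 0.05 and a log2 fold change of more than 0.5 in size. With these limits applied to the unadjusted p of the edgeR fit, *MXD4* was the single member past them in this comparison.

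Lists of related genes that are not members gave a frame for these counts. Of 128 other ribosome biogenesis factors, all of which were tested, 2 were called higher and 26 lower in *LA* than in A549 (median log2 fold change -0.43), and with the length and GC correction 1 and 14 were. The 3 with the largest changes were *POLR1H*, an RNA polymerase I subunit gene listed under its older symbol *ZNRD1* (-2.45, SE 0.51, edgeR adjusted p = 0.00266), *NOP10*, the partner of *NHP2* in the box H/ACA particle (-2.02, SE 0.42, adjusted p = 0.00278), and *HEATR1*, a small-subunit processome gene (2.02, SE 0.51, adjusted p = 0.00857). None of these 3 was called with the correction. In sg*FOS* against sgScr, 13 of the 128 were called higher and 9 lower by edgeR, and *GNL3L*, a relative of *GNL3*, rose by 0.33 (SE 0.05, adjusted p = 4.66e-07) while *GNL3* fell. *NOL9* (0.30) and *EXOSC4* (0.29) were the next in size. In sgScr against A549 the counts were 16 and 35, and in sgScr against *LA* they were 24 and 9. Those called were 21.9% of the 128 in *LA* against A549 (19.5% of all genes) and 17.2% in sg*FOS* against sgScr (22.7%). They were 39.8% in sgScr against A549 (41.5%) and 25.8% in sgScr against *LA* (22.9%). By direction, 9.57% of all genes were called higher and 9.94% lower in *LA* against A549, and 5.4% and 4.18% with the correction. These shares were 12.2% and 10.5% in sg*FOS* against sgScr. They were 19.8% and 21.7% in sgScr against A549, and 10.6% and 12.3% in sgScr against *LA*.

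Of 22 MYC cofactor and turnover genes, 20 were tested, and 2 were called higher and 3 lower in *LA*. These were 25% of those tested, against 19.5% of all genes (9.57% higher and 9.94% lower). The chromatin helicase genes *RUVBL2* (-1.81, SE 0.43, edgeR adjusted p = 0.00570) and *RUVBL1* (-1.54, SE 0.42, adjusted p = 0.0128) had the largest changes among those called. With the length and GC correction, *RUVBL1* kept its call (-1.07, edgeR adjusted p = 0.0494). In sg*FOS*, 0 of the 20 were called higher by edgeR and 5 lower, 25% of those tested against 22.7% of all genes (12.2% higher and 10.5% lower). Among the 5 were *USP28* (-0.22), *AURKA* (-0.21) and *ACTL6A* (-0.20), with AURKA and USP28 known to stabilize MYC proteins. *USP28* was not called by DESeq2 (adjusted p = 0.07255). In sgScr against A549, 5 were called higher and 3 lower, and in sgScr against *LA*, 6 and 3. These were 40% and 45% of those tested, against 41.5% and 22.9% of all genes.

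Of 40 other MYC target genes, 38 were tested, of which 0 were called higher and 8 lower in *LA* by edgeR, with a median of -0.59. *NME1*, a nucleotide kinase gene, fell by 2.35 (SE 0.47, adjusted p = 0.00215), and *HSPE1*, a mitochondrial chaperonin gene (-1.69, SE 0.45, adjusted p = 0.0114), and *PHB1*, listed as *PHB* (-1.66, SE 0.44, adjusted p = 0.0105), were the next in size. With the correction 1 of the 8 was called, *PHB1*. In sg*FOS* the list had 5 called higher and 7 lower, with *NME1* (0.30, SE 0.06, edgeR adjusted p = 6.03e-04) and the amino acid transporter gene *SLC7A5* (0.24, SE 0.03, adjusted p = 6.20e-07) higher and *TERT* (-0.33, SE 0.12, adjusted p = 0.0493) lower. *TERT* was not called by DESeq2 (DESeq2 adjusted p = 0.2126). In sgScr against A549 the counts were 7 and 10, and in sgScr against *LA* they were 14 and 0. Those called were 21.1% of the tested genes in *LA* against A549 (19.5% of all genes) and 31.6% in sg*FOS* against sgScr (22.7%). They were 44.7% in sgScr against A549 (41.5%) and 36.8% in sgScr against *LA* (22.9%). By direction, 9.57% of all genes were called higher and 9.94% lower in *LA* against A549. The shares were 12.2% and 10.5% in sg*FOS* against sgScr, and 10.6% and 12.3% in sgScr against *LA*. The list shares its controls with the members in each comparison.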

How the data were processed

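Whole-gene counts of 9 A549 libraries were analysed. The authors deposited raw read counts per gene, with no normalization. Per the methods, stranded mRNA libraries were sequenced with paired-end reads, aligned to hg19 with STAR (2.7.10b in the submitters' processing notes) and tested with DESeq2 1.26.0. How reads were assigned to genes (program, annotation, strand) is not given in the sources used here, so that overlapping, antisense and near-identical genes are uncertain. All per-sample columns were used, and 28 names that look like dates were kept in totals and tests but are not named.

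Counts were analysed with edgeR 4.0.16 in R 4.3.3, with TMM normalization, the filterByExpr filter and the two-sided quasi-likelihood test, fitted to each comparison's own libraries, with Benjamini-Hochberg adjustment over all genes tested. SE is the absolute log2 fold change divided by the square root of F. Length, GC content and GRCh37 positions came from the canonical transcripts of GENCODE 44, which 22494 names matched directly and 1332 by an older symbol. The correction was a loess curve (span 0.5) in each library, entered as an offset. Figures were drawn with matplotlib 3.10.9 in Python 3.11.15. Procedures were tested on simulated data. Totals were 14507228 to 20456341 counts, and the spread between replicates (biological coefficient of variation 0.329 in *LA* against A549 and 0.0296 in sg*FOS* against sgScr) differed far more than depth.

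The members and the lists were chosen with earlier results of these data known. Named were all 9 network genes, the 5 ribosome genes with the lowest p in each direction among those called, and the 3 largest changes in each list with a mean of at least 50 counts, of which not every gene is reported here. Members outside this rule were named after their values were seen. Alternatives were DESeq2 1.42.0, its size factors, library size alone, no filter, all libraries in a single fit, a replicate block, the length and GC correction, the study's threshold applied to the edgeR fit, and leaving out each library.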

Additional observations from a re-analysis of the deposited data

How the results depend on the processing

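Counts are given as higher and lower, and sgScr and sg*FOS* as in the report. In *LA* against A549, where 4 members were called higher and 11 lower, library size alone left 5 lower with a median log2 fold change of -0.10, all 9 libraries in 1 fit gave 9 and 17, the replicate block gave 6 lower, and the length and GC correction gave 1 and 2. Leaving out a library gave 0 to 7 higher, 0 to 15 lower and medians from -0.44 to -0.20. In sg*FOS* against sgScr (7 and 6), DESeq2 called 4 higher, the study's threshold left 1 and 0, and all 9 libraries in 1 edgeR fit left 0 and 0, with 1 and 0 at an unadjusted p under 0.05. That fit shares the spread of the A549 and *LA* libraries. Leaving out a library gave 4 to 7 higher, 1 to 8 lower and medians from -0.0097 to 0.019. In sgScr against A549 (10 and 9), library size alone moved the median to 0.039, the replicate block gave 5 and 3, and the length and GC correction gave 4 lower, a median of 0.023 and a reversed sign for *MXD3* (0.0817). Leaving out a library gave 0 to 19 higher, 0 to 20 lower and medians from -0.13 to 0.020. In sgScr against *LA* (11 and 1), all 9 libraries in 1 edgeR fit left 0 higher (11 at an unadjusted p under 0.05, and 12 called by DESeq2), the replicate block gave 1 and 0, and the study's threshold gave 2 lower. Leaving out a library gave 0 to 28 higher, 0 to 7 lower and medians from 0.20 to 0.45. Fits on fewer libraries have fewer degrees of freedom. For sgScr against A549 and against *LA*, the upper ends of the call ranges came from fits with a lone A549 or *LA* library. The spread in those fits came from the close sgScr replicates, so that their counts of calls cannot be compared with the others. For the other moves the cause was not tested.

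The replicate numbers are only numbers in the labels. Deviations of same-numbered libraries had a correlation of -0.248 in *LA* against A549 and of -0.131 and 0.0178 in sg*FOS* against sgScr, and the block left 7 and 6 calls in the latter, where *MYC* lost its call (-0.11, edgeR adjusted p = 0.0530). With the pairing crossed, a block added after seeing the data, *LA* against A549 had 5 and 11. Under the alternatives, each named gene was counted once per setting. This gave 33 lost, 2 gained and 141 unchanged calls in *LA* against A549, and 34, 2 and 180 in sg*FOS* against sgScr. The comparisons of sgScr with A549 and with *LA* covered the 9 network genes alone. They gave 9, 7 and 91 against A549, beside the sign change of *MXD3*, and 10, 5 and 93 against *LA*. A gene not called in either fit was counted as unchanged whatever its sign. *MYCL* (16 to 44 counts) and *PPAN* (12 to 40 counts) had too few reads for changes of the size seen in sg*FOS* to be detectable.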
